A study of Homo sapiens with 6 samples.

Results

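The genes of ERBB receptors and of their EGF-family ligands were followed through MKN45 gastric cancer cells and a pair of derivatives that had become resistant to T cell bispecific antibodies. The set was chosen by gene symbol and comprised 8 of the 29744 symbols in the count table. It held the ligand genes TGFA, AREG, EREG, HBEGF and BTC and the receptor genes EGFR, ERBB2 and ERBB3. All 8 had enough counts to be tested, among 14958 symbols that did.

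Sequencing libraries came from 3 lines, with 2 libraries for each line. HER2R cells resisted HER2-TCB, an antibody that links T cells to the receptor HER2 on a tumour cell, and their libraries carry the cell line name MKN45-HER2. The labels do not say whether that name stands for the resistant cells themselves or for a modified line they were raised from. CEAR cells, cell line name MKN45-CEAR, resisted CEACAM5-TCB, which binds the epithelial surface protein CEACAM5. MKN45 itself was labelled sensitive. All 3 lines were grown without treatment in DMEM/F-12 with serum, and total RNA was taken from cultures of tumour cells alone as far as the labels say. Whether a derivative is a single clone, and whether its 2 libraries were grown as separate cultures, is not stated, so the p-values measure the spread between these libraries, which may be technical.

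Library totals lay between 39657353 and 57964246 counts, and 1 count was worth 0.0177 to 0.0255 CPM (the count scaled to a fixed library total). The 8 epithelial markers summed to 12121 and 15770 CPM in HER2R, 8494 and 10161 CPM in CEAR, and 10834 and 12968 CPM in MKN45. The 12 T cell and leukocyte markers summed to 3.44 and 3.85 CPM in HER2R, 2.92 and 5.98 CPM in CEAR, and 5.10 and 15.5 CPM in MKN45, mostly from CD68, and CD3D, CD2 and MS4A1 had 0 counts in every library. The 8 fibroblast and endothelial markers summed to 7.92 and 3.75 CPM in HER2R, 1.83 and 1.17 CPM in CEAR, and 1.81 and 0.705 CPM in MKN45, mostly from COL1A1, with COL3A1, DCN and CDH5 at 0 counts. COL1A1, 1 of the markers, had a log2 fold change of 2.22 in HER2R against MKN45 (edgeR adjusted p = 0.0564, unadjusted 0.00638, called by DESeq2 and with the replicate number as a block), in the direction of the ligand genes described here, and its part in those results was not tested.

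ERBB receptors are surface tyrosine kinases that pair when a ligand binds and then switch on the RAS to ERK and PI3K to AKT routes. EGFR binds all the ligands of the set, ERBB2 has no known ligand of its own and serves as a preferred partner, and ERBB3 binds neuregulins and signals mainly through its partners. The ligands are made as precursors anchored in the membrane and are released by metalloproteases, ADAM17 above all. In stomach epithelium they take part in growth and repair, and ERBB2 is amplified in a fraction of gastric cancers, where HER2 is a drug target.

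The promoter windows of the 3 ligand genes that were called higher in HER2R are shown, because their letters differ in the motifs they hold. Each is the 250 bases before the first RefSeq start of the gene in GRCh38.p14, written 5′ to 3′ on the strand of the gene. Capitals mark the matches to 4 motifs searched on both strands, the cyclic AMP response element TGACGTCA, the AP-1 motif TGANTCA, the TEAD motif CATTCC and the GC box, which is GGGCGG in the orientation of its name. AREG lies on the plus strand at chr4:74444886-74445135, EREG on the plus strand at chr4:74364895-74365144 and HBEGF on the minus strand at chr5:140346604-140346853.
AREG: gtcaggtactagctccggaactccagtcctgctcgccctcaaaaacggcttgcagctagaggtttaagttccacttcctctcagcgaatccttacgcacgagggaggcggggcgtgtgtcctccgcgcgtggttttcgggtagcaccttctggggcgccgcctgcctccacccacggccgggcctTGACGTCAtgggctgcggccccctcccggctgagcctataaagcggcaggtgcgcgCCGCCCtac
EREG: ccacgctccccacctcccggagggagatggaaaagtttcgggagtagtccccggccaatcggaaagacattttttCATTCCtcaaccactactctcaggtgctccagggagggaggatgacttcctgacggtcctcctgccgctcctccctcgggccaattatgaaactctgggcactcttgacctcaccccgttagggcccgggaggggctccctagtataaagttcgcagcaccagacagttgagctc
HBEGF: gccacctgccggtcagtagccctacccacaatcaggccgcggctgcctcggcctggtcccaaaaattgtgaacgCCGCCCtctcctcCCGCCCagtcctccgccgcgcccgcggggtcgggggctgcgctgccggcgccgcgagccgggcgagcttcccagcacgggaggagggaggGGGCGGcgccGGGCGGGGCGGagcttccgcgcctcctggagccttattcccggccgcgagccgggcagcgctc
The AREG window holds TGACGTCA, which begins 65 bases before the start, and a GC box. The EREG window holds the TEAD motif, 175 bases before the start, and none of the other 3 motifs. The HBEGF window holds 5 GC boxes, of which 2 overlap by a base, and none of the other 3 motifs. Among the 35116 RefSeq promoter windows of this length, 1.65% held TGACGTCA, 6.57% held the AP-1 motif, 11.9% held the TEAD motif and 42.6% held a GC box. A match is a description of the letters only.

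In HER2R 3 ligand genes were higher than in MKN45 and 1 receptor gene was lower. With edgeR's quasi-likelihood test and Benjamini-Hochberg adjustment over all 14958 genes, called at an adjusted p under 0.05, the ligand genes were AREG, EREG and HBEGF and the receptor gene was ERBB3. In bulk RNA, fewer cells with a transcript and less of it per cell cannot be told apart. These are 3 of 8 members called higher, where 4.89% of all tested genes were, and 1 of 8 called lower, where 4.85% were. With the replicate number added to the fit as a block, 4 members were higher and 2 lower. The block called 5040 of all tested genes, in either direction. The median log2 fold change of the members was 0.33, against -0.02 for all tested genes. The HER2R libraries of 6 members did not overlap those of MKN45, which was the case for 57.1% of all tested genes.

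In CEAR against MKN45 only EREG of the 8 members passed the edgeR test, as the 1 member called higher, beside 2.57% of all tested genes called higher. No member was called lower by edgeR, where 3.62% of all tested genes were. At an unadjusted p under 0.05, 2 members were higher and 0 lower, DESeq2 called 2 higher and 0 lower, and the replicate block gave 2 higher and 1 lower. In either direction DESeq2 called 2098 and the block 3860 of all tested genes. The members' median log2 fold change was -0.18, against 0.00 for all tested genes. Libraries of 5 members did not overlap between CEAR and MKN45, beside 50.6% of all tested genes. The comparisons of HER2R and of CEAR share the MKN45 libraries.

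Set directly against CEAR, HER2R had higher AREG, HBEGF and TGFA, which makes 3 of 8 members higher beside 7.32% of all tested genes. The number of members called lower by edgeR was 0, beside 6.75% of all tested genes, although 1 member, ERBB3, was lower at an unadjusted p under 0.05, by DESeq2 and with the replicate block. DESeq2 called 3432 and the block 5717 of all tested genes, in either direction. The median log2 fold change was 0.17, against 0.00 for all tested genes, and 5 members had libraries that did not overlap, beside 61.4% of all tested genes.

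**Figure D1:**
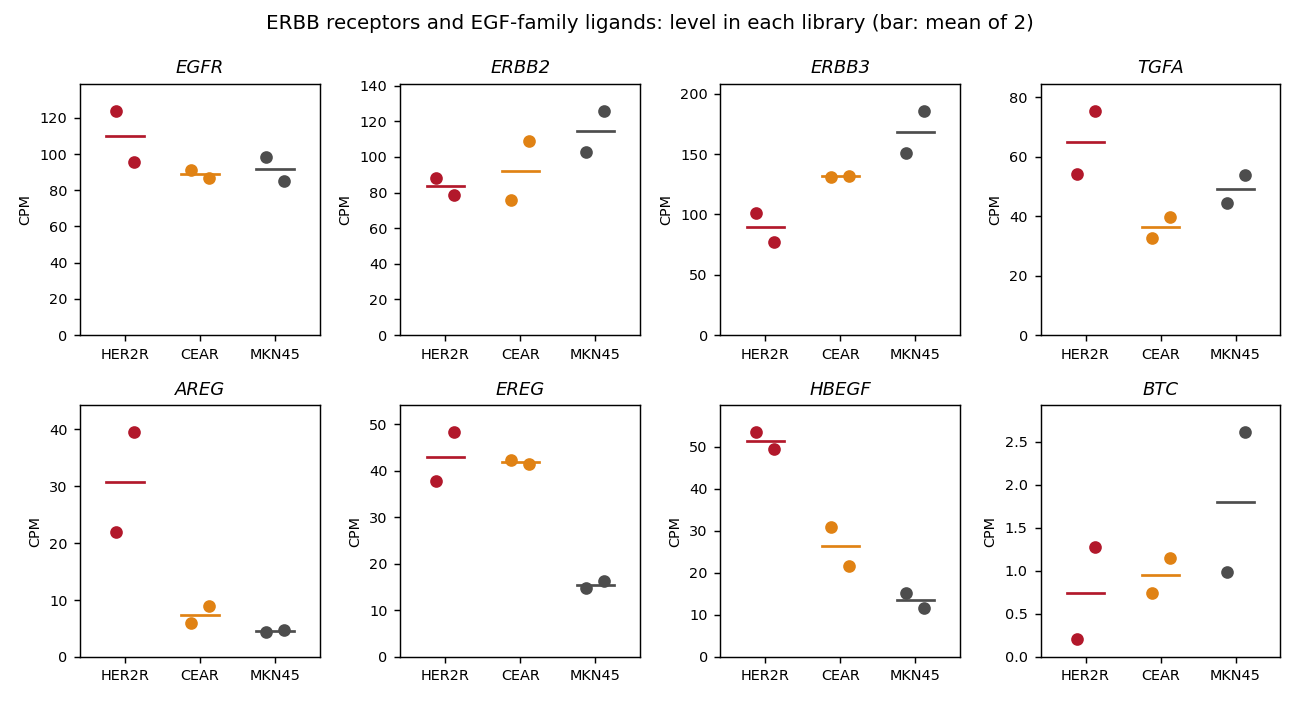
Levels of the 8 genes in CPM (linear axes from 0), with a point for each of the 2 libraries per line and a bar for their mean. AREG and HBEGF are highest in both HER2R libraries, EREG is raised about alike in HER2R and CEAR, and ERBB3 is lowest in HER2R.

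AREG encodes amphiregulin, a ligand of EGFR. The gene lies at chr4:74445134-74455009 (GENCODE 29, GRCh38). It had 22.0 and 39.5 CPM in HER2R, 5.95 and 8.90 CPM in CEAR, and 4.41 and 4.78 CPM in MKN45, from 865 and 1549, 247 and 396, and 249 and 210 counts. Both HER2R libraries were far above all others, they differed most between themselves, and the 3 lines did not overlap. Over MKN45 the log2 fold change in HER2R was 2.75 (SE 0.349), or 6.70-fold, with an edgeR adjusted p of 0.00892. Taken by library number, the log2 ratios were 2.32 and 3.05. In CEAR the log2 fold change over MKN45 was 0.70, with a 95% interval from -0.14 to 1.53, and did not pass the test (edgeR adjusted p = 0.296, and 0.0504 with the replicate number as a block). HER2R exceeded CEAR by 2.05 on the log2 scale (SE 0.338, 4.14-fold, edgeR adjusted p = 0.0173). That last call ended without HER2R library 2 (log2 fold change 1.57, adjusted p = 0.0917 in edgeR) or CEAR library 1 (1.78, adjusted p = 0.0665), whereas the call against MKN45 held with any library left out, at edgeR adjusted p up to 0.0493.

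EREG encodes epiregulin, which binds EGFR and the related receptor ERBB4, and lies 56.4 kb before AREG on the same strand, at chr4:74365143-74388751. Its levels were 37.9 and 48.3 CPM in HER2R, 42.4 and 41.5 CPM in CEAR, and 14.8 and 16.3 CPM in MKN45. The libraries of the derivatives lay among each other and all 4 were above MKN45. The log2 fold change over MKN45 was 1.47 in HER2R (SE 0.168, 2.77-fold, edgeR adjusted p = 0.00662) and 1.43 in CEAR (SE 0.168, 2.70-fold, edgeR adjusted p = 0.00898). Both calls held when any library was left out, with edgeR adjusted p up to 0.0494 in HER2R and 0.0469 in CEAR. Between HER2R and CEAR the difference was 0.04 on the log2 scale, with a 95% interval from -0.35 to 0.43 (edgeR adjusted p = 0.896), and its sign turned with 2 of the alternatives tried, to -0.04 and -0.15.

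HBEGF encodes heparin-binding EGF-like growth factor, which also binds EGFR and ERBB4, and lies at chr5:140332843-140346631 on the minus strand. It had 53.4 and 49.5 CPM in HER2R, 30.8 and 21.7 CPM in CEAR, and 15.2 and 11.7 CPM in MKN45. The lines stood in steps without overlap. HER2R was higher than MKN45 by 1.93 on the log2 scale (SE 0.226, 3.82-fold, edgeR adjusted p = 0.00713), and this call ended without HER2R library 1 (1.88, adjusted p = 0.0594) or HER2R library 2 (1.99, adjusted p = 0.0536). CEAR had a log2 fold change of 0.96 over MKN45 (95% interval 0.43 to 1.5) and just missed the threshold with an edgeR adjusted p of 0.0576, which was 0.00188 with the replicate block, 0.0490 with library size alone and 0.00305 in DESeq2. HER2R exceeded CEAR by 0.97 (SE 0.219, 1.96-fold, edgeR adjusted p = 0.0353). This last call ended with no filter on low counts (adjusted p = 0.0529), without HER2R library 1 (0.91, adjusted p = 0.161) or library 2 (1.02, adjusted p = 0.142), and without CEAR library 1 (1.24, adjusted p = 0.0535) or library 2 (0.73, adjusted p = 0.142).

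TGFA encodes transforming growth factor alpha, a ligand specific to EGFR, and lies at chr2:70447280-70554193 on the minus strand. Its levels were 54.3 and 75.5 CPM in HER2R, 32.7 and 39.7 CPM in CEAR, and 44.3 and 53.9 CPM in MKN45. MKN45 lay between the derivatives, with HER2R above it and CEAR below it in every library. Neither difference from MKN45 passed the edgeR test, with a log2 fold change of 0.40 in HER2R (95% interval -0.09 to 0.90, adjusted p = 0.257) and -0.44 in CEAR (95% interval -0.94 to 0.06, adjusted p = 0.274). With the replicate block both did, at edgeR adjusted p = 0.0236 in HER2R and 0.0198 in CEAR. HER2R exceeded CEAR by 0.84 on the log2 scale (SE 0.209, 1.79-fold, edgeR adjusted p = 0.0457). That call was near the threshold. It ended with library size alone (adjusted p = 0.0533), with no filter on low counts (0.0660), with the compared lines alone (0.0534) and without any single library of the 6, with edgeR adjusted p from 0.0532 to 0.212 and log2 fold changes from 0.59 to 1.06.

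BTC encodes betacellulin, a further ligand of EGFR and ERBB4, lies at chr4:74744759-74794686 on the minus strand, and was scarce in all lines. Its counts were 8 and 50 in HER2R, 31 and 51 in CEAR, and 56 and 115 in MKN45, which gives 0.204 and 1.28 CPM in HER2R, 0.747 and 1.15 CPM in CEAR, and 0.992 and 2.61 CPM in MKN45. The libraries overlapped in all 3 comparisons. The log2 fold changes over MKN45 were -1.25 in HER2R (95% interval -3.12 to 0.63, edgeR adjusted p = 0.345) and -0.89 in CEAR (95% interval -2.65 to 0.88, edgeR adjusted p = 0.536), and the HER2R value passed only with the replicate block (adjusted p = 0.0444). HER2R against CEAR gave -0.36 (95% interval -2.43 to 1.70, edgeR adjusted p = 0.807).

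ERBB3, a receptor of neuregulins, was the 1 receptor gene called in any of the comparisons. It lies at chr12:56076799-56103505, where AC034102.2, not used here, overlaps it on the same strand. Its levels were 101 and 77.5 CPM in HER2R, 131 and 132 CPM in CEAR, and 151 and 186 CPM in MKN45, so that the lines did not overlap and both HER2R libraries were lowest. HER2R was lower than MKN45 by a log2 fold change of -0.92 (SE 0.175, edgeR adjusted p = 0.0272), and the log2 ratios by library number were -0.58 and -1.26. This call ended without HER2R library 1 (-1.12, adjusted p = 0.0787) or library 2 (-0.74, adjusted p = 0.148) and without MKN45 library 1 (-1.05, adjusted p = 0.0525) or library 2 (-0.77, adjusted p = 0.103). CEAR gave -0.35 against MKN45 (95% interval -0.77 to 0.06, edgeR adjusted p = 0.287). HER2R against CEAR gave -0.56 (95% interval -0.98 to -0.14) with an edgeR adjusted p of 0.0797, which was 0.0200 with the replicate block and 0.0338 in DESeq2.

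ERBB2, which encodes HER2, the antigen bound by HER2-TCB, had 88.2 and 78.8 CPM in HER2R, 75.6 and 109 CPM in CEAR, and 103 and 126 CPM in MKN45. Both HER2R libraries were below MKN45, and the CEAR libraries spanned both. The log2 fold changes did not pass the edgeR test, at -0.46 in HER2R (95% interval -0.95 to 0.04, adjusted p = 0.203) and -0.31 in CEAR (95% interval -0.80 to 0.18, adjusted p = 0.429) against MKN45, and -0.15 in HER2R against CEAR (95% interval -0.64 to 0.35, adjusted p = 0.662). Without CEAR library 2 the last value turned to 0.14. The gene lies at chr17:39687914-39730426 and overlaps PGAP3 and MIEN1 on the opposite strand. The libraries are stranded but the counting is not stated to use strand, so reads of ERBB2 cannot be told apart from those of these neighbours where they overlap.

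EGFR, the receptor of all 5 ligands, had 124 and 95.4 CPM in HER2R, 91.3 and 86.5 CPM in CEAR, and 98.5 and 85.1 CPM in MKN45. HER2R overlapped MKN45 and stood above CEAR. In none of the 3 comparisons did it pass the edgeR test, with log2 fold changes of 0.26 for HER2R against MKN45 (95% interval -0.14 to 0.65, adjusted p = 0.358), -0.05 for CEAR against MKN45 (-0.44 to 0.35, adjusted p = 0.907) and 0.30 for HER2R against CEAR (-0.09 to 0.70, adjusted p = 0.261). The CEAR value turned to 0.03 with library size alone and to 0.07 without MKN45 library 1. The gene lies at chr7:55019021-55211628, and EGFR-AS1, its antisense gene, had 0 counts in every library.

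**Figure D2:**
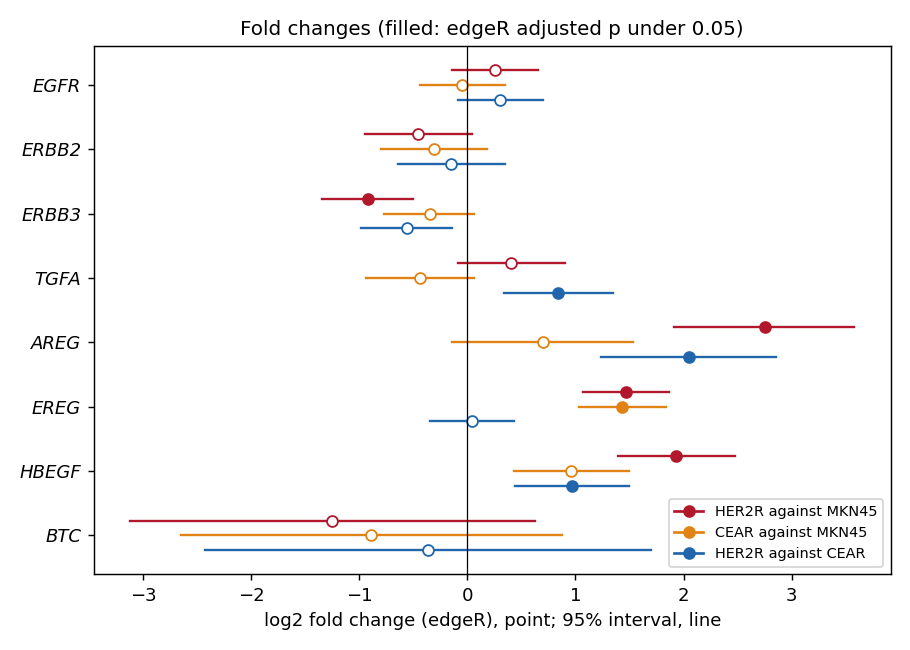
Fitted log2 fold changes of the 8 genes in the 3 comparisons of lines, with 95% intervals as bars and filled points where the edgeR adjusted p is under 0.05. AREG, EREG and HBEGF lie right of 0 and ERBB3 left of 0 in HER2R against MKN45, while EREG alone is filled in CEAR against MKN45.

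Genes can be compared with each other only per length, so levels were divided by the total exon length of each gene. This length joins the exons of all annotated transcripts, 1.648 kb for AREG and 10.321 kb for ERBB2. It can exceed the length of the transcripts present, by an amount that differs between genes. The order of genes, and the sums and shares below, depend on it. In HER2R the ligand genes AREG, HBEGF and TGFA led, with 18.7 ± 7.50, 17.1 ± 0.906 and 13.1 ± 3.02 CPM per kb (SD, n = 2), ahead of ERBB3 at 9.87 ± 1.83, EGFR at 8.75 ± 1.60, ERBB2 at 8.09 ± 0.646, EREG at 7.54 ± 1.28 and BTC at 0.263 ± 0.269 CPM per kb. Neighbours in this order overlapped except HBEGF with TGFA and EREG with BTC. CEAR placed ERBB3 first, at 14.6 ± 0.110 CPM per kb (SD, n = 2), then ERBB2 at 8.96 ± 2.31, HBEGF at 8.70 ± 2.14, EREG at 7.34 ± 0.114, TGFA at 7.30 ± 0.989, EGFR at 7.10 ± 0.272, AREG at 4.51 ± 1.26 and BTC at 0.336 ± 0.100 CPM per kb, where neighbours from ERBB2 down to EGFR overlapped.

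In MKN45 the receptor genes ERBB3 and ERBB2 led, with 18.6 ± 2.70 and 11.1 ± 1.52 CPM per kb (SD, n = 2), followed by TGFA at 9.89 ± 1.37, EGFR at 7.33 ± 0.758, HBEGF at 4.46 ± 0.813, AREG at 2.79 ± 0.156, EREG at 2.72 ± 0.175 and BTC at 0.640 ± 0.408 CPM per kb. Neighbours overlapped only for ERBB2 with TGFA and for AREG with EREG. AREG was thus first in HER2R by its mean, though within the spread of HBEGF, and ERBB3 was first in both other lines.

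The balance of ligand to receptor RNA differed in the same way. The 5 ligands summed to 48.7 and 64.5 CPM per kb in HER2R, 28.1 and 28.2 in CEAR, and 19.6 and 21.4 in MKN45. The 3 receptors summed to 29.6 and 23.8 CPM per kb in HER2R, 29.1 and 32.2 in CEAR, and 34.6 and 39.5 in MKN45. The ligand sum was thus 1.65 and 2.71 times the receptor sum in HER2R, 0.965 and 0.878 times in CEAR, and 0.566 and 0.542 times in MKN45, with no overlap between lines. These ratios rest on the genes already tested above and carry no test of their own. Whether a ratio is above or below 1 also depends on the exon lengths used.

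The make-up of the ligand sum shifted between lines. HBEGF supplied 36.3% and 25.4% of it in both derivatives, against 25.7% and 18.1% in MKN45. TGFA supplied 22.5% and 23.6% of it in HER2R and 23.5% and 28.3% in CEAR, against 45.6% and 50.7% in MKN45, where it was the leading ligand. AREG supplied 27.4% and 37.2% in HER2R and 12.8% and 19.1% in CEAR, against 13.7% and 13.5% in MKN45. EREG supplied 13.6% and 13.1% in HER2R and 26.4% and 25.7% in CEAR, against 13.3% in both MKN45 libraries. EREG thus had about the same share in HER2R and MKN45 although its level was higher in HER2R.

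Among receptors, the count of ERBB3 over that of ERBB2 was 1.14 and 0.983 in HER2R, 1.73 and 1.21 in CEAR, and 1.46 and 1.48 in MKN45. EGFR over ERBB3 was 1.23 in both HER2R libraries, 0.697 and 0.653 in CEAR, and 0.652 and 0.459 in MKN45, so HER2R held more EGFR counts than ERBB3 counts and the other lines fewer. AREG over EREG counts came to 0.581 and 0.819 in HER2R, 0.140 and 0.214 in CEAR, and 0.297 and 0.294 in MKN45, lowest in CEAR. These count ratios are not scaled for gene length, which is the same in each library.

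**Figure D3:**
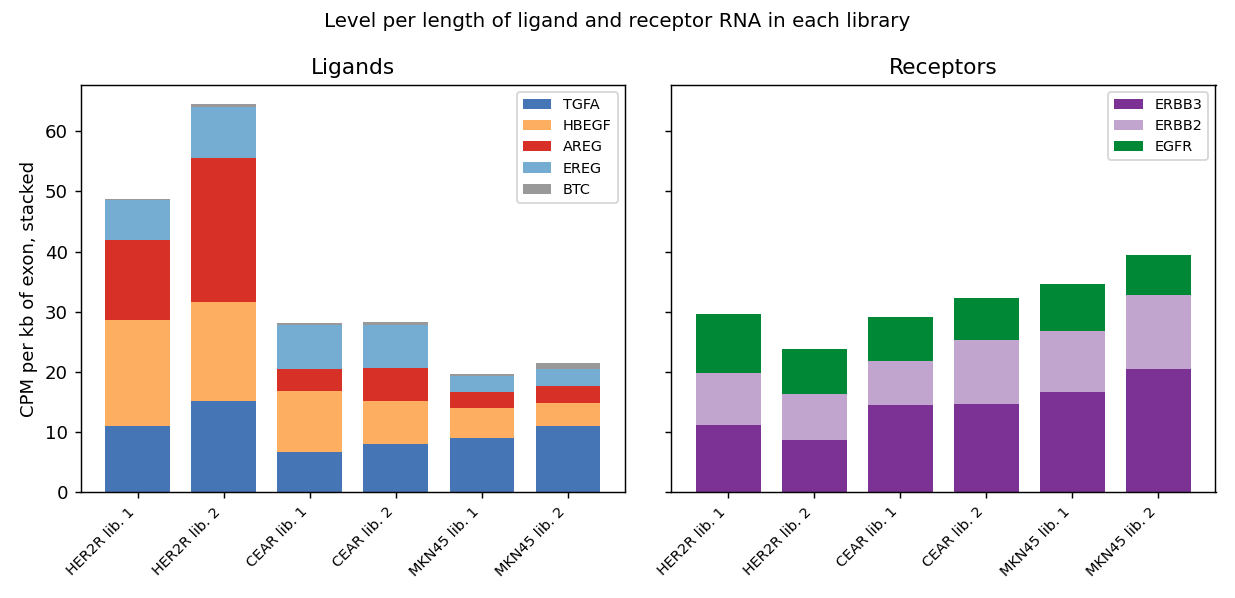
Levels per length in CPM per kb of exon for each library, as stacked bars from 0, with the 5 ligands on the left and the 3 receptors on the right. The ligand stack is tallest in HER2R, at 48.7 and 64.5, and the receptor stack in MKN45, at 34.6 and 39.5.

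Of the remaining receptor and ligand genes of the family, most had few or no counts and NRG4 was the exception. EGF and NRG3 had 0 counts in all 6 libraries, EPGN had 1 count in CEAR library 1, and NRG1, a ligand of ERBB3, had 1 count there and 2 in MKN45 library 2. A floor of 3 counts over the libraries of a line allows up to 0.0382 CPM in HER2R, 0.0349 in CEAR and 0.0299 in MKN45, and like all such limits covers counting error only. ERBB4, the fourth receptor, had 6 and 3 counts in HER2R and 0 in CEAR and MKN45, and was not tested. Its observed level over the HER2R libraries was 3.84 times the floor in MKN45. That value leaves out the counting error of the HER2R counts and is no lower bound. NRG4, a ligand of ERBB4, was the most abundant of them, with 4.33 and 4.49 CPM in HER2R, 3.45 and 3.24 CPM in CEAR, and 5.30 and 10.2 CPM in MKN45, from 143 to 447 counts a library. Of the 7 listed relatives NRG2 and NRG4 were tested. In HER2R against MKN45 0 of these 2 passed the edgeR test in either direction, at an unadjusted p under 0.05 the number was 0, and DESeq2 called 0. In CEAR against MKN45 edgeR called 0, while 1 was lower at an unadjusted p under 0.05, by DESeq2 and with the replicate block. DESeq2 called 2098 and the block 3860 of all tested genes there, in either direction.

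AREG, EREG, BTC and EPGN lie together on chromosome 4, with MTHFD2L, a folate enzyme gene, before them and PARM1, a mucin-like membrane protein gene, after. PARM1 begins 138.4 kb beyond BTC and rose in both derivatives. It had 92.8 ± 1.04 CPM in HER2R and 55.6 ± 6.96 CPM in CEAR, against 18.9 ± 2.67 CPM in MKN45 (SD, n = 2), with log2 fold changes over MKN45 of 2.30 in HER2R (edgeR adjusted p = 0.00209) and 1.56 in CEAR (edgeR adjusted p = 0.00645). Both calls held with any library left out. HER2R against CEAR gave 0.74 (edgeR adjusted p = 0.0310), a call that ended without any library of either line (0.0846 to 0.142).

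MTHFD2L gave 0.66 in HER2R (edgeR adjusted p = 0.263) and 0.57 in CEAR (edgeR adjusted p = 0.376) against MKN45, on the log2 scale. Of the 5 tested genes of this stretch 3 were higher in HER2R than in MKN45 and 0 lower by edgeR, and 2 were higher in CEAR and 0 lower. The shares of all tested genes were 4.89% higher and 4.85% lower in HER2R, and 2.57% and 3.62% in CEAR. At an unadjusted p under 0.05, and in DESeq2, 0 were lower in both comparisons, while the replicate block gave 1 lower in HER2R, BTC (adjusted p = 0.0444 in edgeR), and 0 lower in CEAR. The median log2 fold change of the stretch was 1.47 in HER2R and 0.70 in CEAR, against -0.02 and 0.00 for all tested genes. These medians are the values of EREG in HER2R and of AREG in CEAR. As AREG, EREG and BTC are members reported above, the counts and medians of the stretch are no separate result for them. BTC, between AREG and PARM1, had negative fold changes, which passed in HER2R with the replicate block alone. Their 95% intervals, from -3.12 to 0.63 in HER2R and from -2.65 to 0.88 in CEAR, include 0. A fall of BTC was thus not established, though its estimates lay below those of the other tested genes of the stretch.

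**Figure D4:**
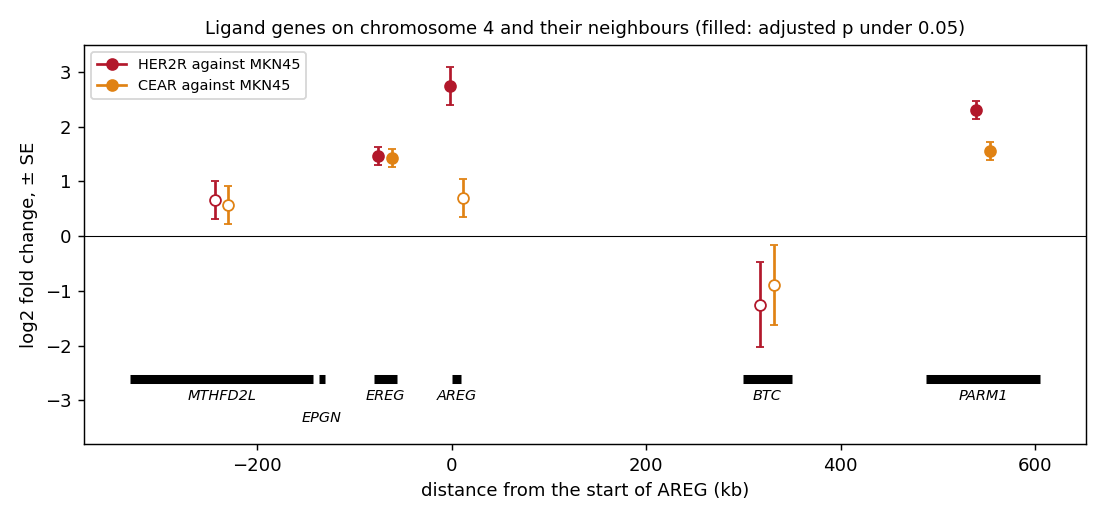
Log2 fold changes over MKN45 with their SE for the tested genes of the chromosome 4 stretch, placed by distance in kb from the start of AREG, with gene bodies as black bars. PARM1 and EREG are filled, for an edgeR adjusted p under 0.05, in both derivatives, AREG in HER2R only, and BTC in neither, and no difference between derivatives is tested in the plot.

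Release of the ligands depends on proteases, of which 9 genes with their partners were listed and 7 tested. In HER2R against MKN45 1 was higher and 1 lower, and 2 higher and 1 lower with the replicate block. Of all tested genes edgeR called 4.89% higher and 4.85% lower there, and the block called 5040 in either direction. ADAM17, the main sheddase of AREG, EREG, HBEGF and TGFA, had 56.0 ± 10.5 CPM in HER2R, against 27.2 ± 5.80 CPM in MKN45 (SD, n = 2), a log2 fold change of 1.04 (edgeR adjusted p = 0.0449). This call ended without either HER2R or either MKN45 library (0.0708 to 0.218) and with no filter on low counts. RHBDL2, a membrane protease of the rhomboid family, had 0 and 2 counts in HER2R, 184 and 506 in CEAR, and 209 and 365 in MKN45. By counts summed over the libraries of a line, it was 224-fold lower in HER2R than in MKN45, with a counting interval from 61.8 to 1856. It was 315-fold lower than in CEAR, with an interval from 86.8 to 2604. These intervals leave out the spread between libraries. The edgeR fit gave -7.71 on the log2 scale against MKN45 (95% interval -10.37 to -5.06, adjusted p = 0.00868). Against CEAR it gave -8.13 (95% interval -10.7 to -5.55, edgeR adjusted p = 0.00742). Both RHBDL2 calls ended without either HER2R library (0.0918 to 0.126).

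In CEAR against MKN45 edgeR called 0 of the 7 shedding genes, at an unadjusted p under 0.05 2 were higher and 0 lower, DESeq2 called 1 higher and 0 lower, and the replicate block gave 2 higher and 1 lower. Of all tested genes edgeR called 2.57% higher and 3.62% lower in that comparison. In either direction DESeq2 called 2098 and the block 3860 of them. HER2R against CEAR gave 1 higher, ADAM17 (log2 fold change 0.96, edgeR adjusted p = 0.0464), and 2 lower, RHBDL2 and RHBDF1, a partner of ADAM17 (-0.74, edgeR adjusted p = 0.0484). The RHBDF1 call ended without any library (0.0654 to 0.203) and that of ADAM17 without any library of either line (0.0797 to 0.213), and both ended with no low-count filter, RHBDF1 with the compared lines alone and ADAM17 with library size alone. With the replicate block 2 were higher and 2 lower between the derivatives. The edgeR shares of all tested genes there were 7.32% higher and 6.75% lower, and the block called 5717 of them in either direction. The list's median log2 fold change was 0.11 in HER2R and 0.10 in CEAR, both over MKN45, and -0.05 between the derivatives.

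Of 11 genes that restrain ERBB receptors, 3 were higher and 1 lower in HER2R than in MKN45, beside 4.89% and 4.85% of all tested genes. ERRFI1, whose product Mig-6 binds and inhibits the receptor kinase, had 327 and 541 CPM in HER2R, 213 and 212 CPM in CEAR, and 144 and 93.3 CPM in MKN45. Its log2 fold change over MKN45 was 1.87 in HER2R (edgeR adjusted p = 0.0175) and 0.84 in CEAR (edgeR adjusted p = 0.146). LRIG1, which promotes receptor degradation, rose in both derivatives, to 37.4 ± 4.05 CPM in HER2R and 35.6 ± 0.650 CPM in CEAR, against 19.3 ± 0.302 CPM in MKN45 (SD, n = 2), with edgeR adjusted p = 0.0153 in HER2R and 0.0226 in CEAR. SOCS5, which also lowers EGFR levels, was higher in HER2R than in MKN45 (1.02, edgeR adjusted p = 0.0253) and than in CEAR (1.00, edgeR adjusted p = 0.0240). PTPN1, a tyrosine phosphatase, was lower in HER2R in both comparisons (-0.63, edgeR adjusted p = 0.0382 against MKN45, and -0.66, edgeR adjusted p = 0.0287 against CEAR).

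LRIG1 was the 1 restraining gene called in CEAR against MKN45, with 0 called lower by edgeR. At an unadjusted p under 0.05, 4 were higher and 1 lower, DESeq2 called 3 higher and 0 lower, and the replicate block gave 4 higher and 1 lower. HER2R against CEAR had SOCS5 higher and PTPN1 and LRIG3 lower (LRIG3 -0.74, edgeR adjusted p = 0.0321), and 3 higher and 2 lower with the replicate block. Of all tested genes edgeR called 2.57% higher and 3.62% lower in CEAR against MKN45, and 7.32% and 6.75% in HER2R against CEAR. In either direction the block called 3860 and 5717 of them in these comparisons, and DESeq2 called 2098 in CEAR against MKN45. The list's medians were -0.06 in HER2R and 0.09 in CEAR against MKN45, and -0.13 in HER2R against CEAR. Each of these calls ended without at least 1 library. ERRFI1 ended without HER2R library 2 or MKN45 library 2 (0.0704 to 0.0855). Over MKN45 in HER2R, LRIG1 (0.0642 to 0.110) and SOCS5 (0.0658 to 0.156) ended without any library of either line and PTPN1 without any library at all (0.0577 to 0.203), with no low-count filter and with the compared lines alone. The LRIG1 call in CEAR ended without any library (0.0521 to 0.108) and with the compared lines alone, and the SOCS5, PTPN1 and LRIG3 calls between the derivatives without any library of either line (0.0807 to 0.173).

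The adaptors and kinases that carry the signal were mixed, with 2 of 23 higher and 4 lower in HER2R than in MKN45, 2 higher and 6 lower with the replicate block, and medians of -0.01 for the list and -0.02 for all genes. Of all tested genes 4.89% were called higher and 4.85% lower by edgeR, and the block called 5040 in either direction. SOS1, the exchange factor that activates RAS, had 81.5 ± 10.4 CPM in HER2R, against 41.6 ± 4.98 CPM in MKN45 (SD, n = 2, edgeR adjusted p = 0.0366). GRB7, an adaptor encoded beside ERBB2, had 35.9 ± 2.17 CPM in HER2R, against 18.4 ± 0.727 CPM in MKN45 (edgeR adjusted p = 0.0261). MAPK3, which encodes the kinase ERK1, fell most, to 21.5 ± 0.0903 CPM in HER2R and 43.5 ± 11.4 CPM in CEAR, against 95.4 ± 18.3 CPM in MKN45, with log2 fold changes of -2.15 (edgeR adjusted p = 0.00540) and -1.13 (edgeR adjusted p = 0.0364). PIK3R1, a regulatory subunit of PI3K, fell to 97.0 ± 2.37 CPM in HER2R and 96.9 ± 11.2 CPM in CEAR, against 174 ± 7.52 CPM in MKN45, with edgeR adjusted p = 0.0173 and 0.0199. AKT1 (-0.82, edgeR adjusted p = 0.0194) and BRAF (-0.79, edgeR adjusted p = 0.0264), kinases of the PI3K and ERK routes, were lower in HER2R than in MKN45.

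MAPK3 and PIK3R1 were the 2 of 23 called lower in CEAR against MKN45, with 0 called higher by edgeR. At an unadjusted p under 0.05, 3 were higher and 4 lower, DESeq2 called 1 higher and 3 lower, and the replicate block gave 3 higher and 4 lower. Between the derivatives 3 were higher and 5 lower in HER2R, and 5 higher and 6 lower with the replicate block. The edgeR shares of all tested genes were 2.57% higher and 3.62% lower in CEAR against MKN45, and 7.32% and 6.75% in HER2R against CEAR. In either direction the block called 3860 and 5717 of them in these comparisons, and DESeq2 called 2098 in CEAR against MKN45. MAP2K2 (0.61, edgeR adjusted p = 0.0272), GRB7 (0.73, edgeR adjusted p = 0.0442) and SOS1 (0.82, edgeR adjusted p = 0.0467) were higher. AKT1 (-0.92, edgeR adjusted p = 0.0132), MAPK3 (-1.02, edgeR adjusted p = 0.0332) and PLCG1 (-0.73, edgeR adjusted p = 0.0375) were among the lower ones, as was MAP2K1 at -0.52 (edgeR adjusted p = 0.0447). MAP2K1 is named outside the rule for named genes, after its value was seen.

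Each of the calls named here under the rule ended without at least 1 library. Against MKN45 in HER2R, MAPK3 ended without either HER2R library (0.0559 to 0.0584), and SOS1, GRB7, PIK3R1, AKT1 and BRAF without any library of either line (0.0594 to 0.188). Against MKN45 in CEAR, PIK3R1 ended without any library (0.0573 to 0.116) and MAPK3 without any but CEAR library 2 (0.0583 to 0.131). Between the derivatives, SOS1, GRB7 and PLCG1 ended without any library, AKT1 and MAPK3 without either HER2R library or CEAR library 2, and MAP2K2 without any library of either line. With the compared lines alone the PIK3R1 and MAPK3 calls in CEAR ended too, as did those of SOS1, GRB7 and PLCG1 between the derivatives, and with no low-count filter those of SOS1 in both of its comparisons, of MAPK3 in CEAR and of GRB7 and PLCG1 between the derivatives. Library size alone ended those of GRB7 and SOS1 between the derivatives.

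Genes that the ERK route is known to switch on were listed in a group of 16. In HER2R against MKN45 3 of them were higher and 0 lower by edgeR, beside 4.89% and 4.85% of all tested genes. The other 13 did not pass, among them EGR1 at -0.94 (edgeR adjusted p = 0.0920) and SPRY2 at 0.13 (edgeR adjusted p = 0.807) on the log2 scale. The median log2 fold change was 0.63, against -0.02 for all tested genes. At an unadjusted p under 0.05, 10 were higher and 1 lower, DESeq2 called 8 higher and 1 lower, and the replicate block gave 12 higher and 1 lower. These looser settings also called more of all tested genes, in either direction 2820 with DESeq2 and 5040 with the block. The matching number at an unadjusted p under 0.05 is not given, so the edgeR shares are no measure for these counts. JUN, a subunit of AP-1, rose in both derivatives, to 227 ± 21.3 CPM in HER2R and 181 ± 18.6 CPM in CEAR, against 84.7 ± 0.139 CPM in MKN45 (SD, n = 2), with log2 fold changes of 1.42 (edgeR adjusted p = 0.00428) and 1.09 (edgeR adjusted p = 0.0115). DUSP4 and DUSP5, phosphatases that switch ERK off, were higher in HER2R. DUSP4 had 229 ± 33.4 CPM in HER2R, against 96.8 ± 8.77 CPM in MKN45 (edgeR adjusted p = 0.00815), and DUSP5 had 8.60 ± 4.46 CPM in HER2R, against 1.29 ± 0.776 CPM in MKN45 (edgeR adjusted p = 0.0285).

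SPRY2, a feedback inhibitor of receptor signalling, was the 1 output gene called lower in CEAR against MKN45 and differed between the derivatives. It had 37.9 ± 2.82 CPM in HER2R, 8.28 ± 0.556 CPM in CEAR and 34.7 ± 14.9 CPM in MKN45 (SD, n = 2). The log2 fold change was -2.07 in CEAR against MKN45 (edgeR adjusted p = 0.0167) and 2.20 in HER2R against CEAR (edgeR adjusted p = 0.0120). In CEAR against MKN45 the output list had 1 gene higher, JUN, and 1 lower, beside 2.57% and 3.62% of all tested genes. The median was 0.12, against 0.00 for all tested genes. In HER2R against CEAR 4 were higher, SPRY2, DUSP5 (3.0, edgeR adjusted p = 0.0234), DUSP4 (0.80, edgeR adjusted p = 0.0243) and SPRY4 (0.85, edgeR adjusted p = 0.0458). The transcription factor gene EGR1 was lower there (-1.29, edgeR adjusted p = 0.0358), and the median was 0.59 against 0.00. Of all tested genes edgeR called 7.32% higher and 6.75% lower in that comparison. With the replicate block 3 were higher in CEAR than in MKN45 and 1 lower, and 10 were higher in HER2R than in CEAR and 1 lower. In either direction the block called 3860 of all tested genes in CEAR against MKN45 and 5717 in HER2R against CEAR.

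The JUN call in HER2R against MKN45 held with any library left out. In CEAR it ended without CEAR library 2 or either MKN45 library (0.0540 to 0.0619), and that of SPRY2 without either CEAR library (0.0699 to 0.0812). Over MKN45 in HER2R, DUSP4 ended without HER2R library 2 or MKN45 library 2 (0.0511 to 0.0600) and DUSP5 without any library of either line (0.0553 to 0.142). Between the derivatives, SPRY2 ended without either HER2R library or CEAR library 2 (0.0583 to 0.0727), and DUSP4, DUSP5, SPRY4 and EGR1 without any library of either line (0.0565 to 0.184), with SPRY4 and EGR1 also lost with no low-count filter and SPRY4 with library size alone.

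**Figure D5:**
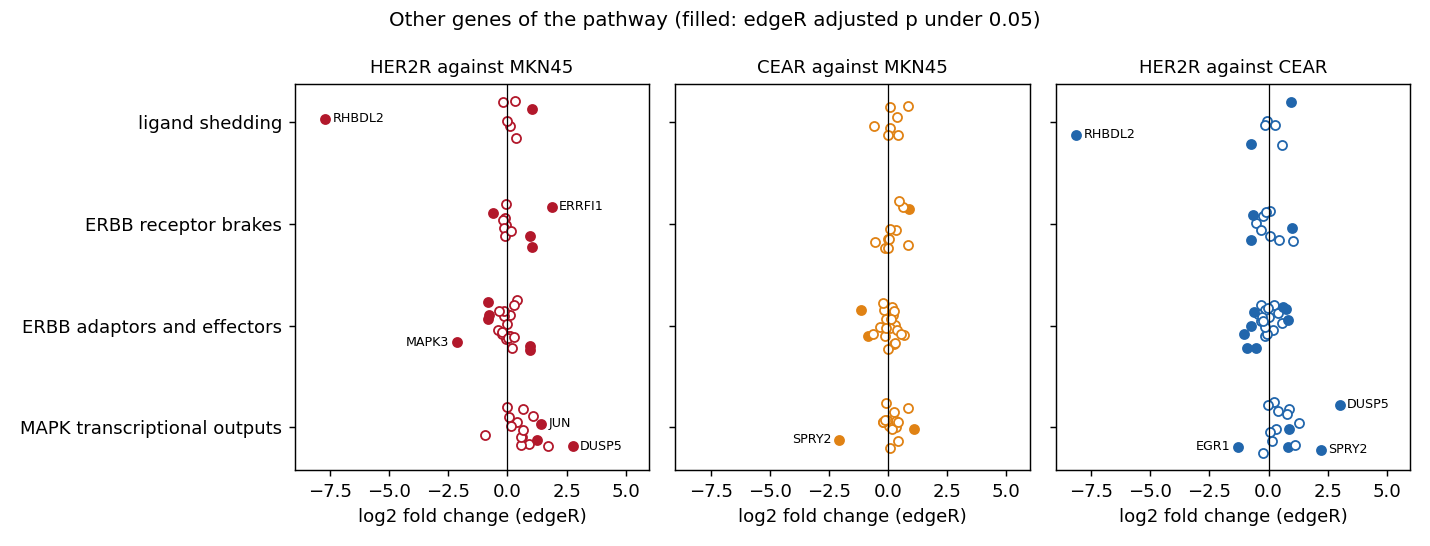
Log2 fold changes of the tested genes in 4 lists of the pathway, for the 3 comparisons of lines, with filled points where the edgeR adjusted p is under 0.05 and points spread vertically only to be seen apart. The fitted value of RHBDL2, which had 0 and 2 counts in HER2R, depends on the prior count and is no bound. Output genes lie mostly right of 0 in HER2R against MKN45, where 3 of 16 were called higher, beside 4.89% of all tested genes.

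Some epithelial markers moved with some of these differences and others against them, and their part in them was not tested. Of 7 tested markers 0 passed the edgeR test in HER2R against MKN45, where 1 was higher and 2 lower at an unadjusted p under 0.05 and DESeq2 called 1 higher and 1 lower. In CEAR against MKN45 edgeR called 0, while 0 were higher and 2 lower at an unadjusted p under 0.05 and DESeq2 called 0 higher and 1 lower. In HER2R against CEAR the adhesion protein gene EPCAM was higher, at 811 ± 86.8 CPM in HER2R and 469 ± 23.3 CPM in CEAR (SD, n = 2, edgeR adjusted p = 0.0327), a call that ended without any library of either line (0.109 to 0.168). With the replicate block 1 was higher and 3 lower in HER2R against MKN45, 0 higher and 2 lower in CEAR against MKN45, and 3 higher and 2 lower between the derivatives. The list's median in HER2R against CEAR was 0.61 on the log2 scale, in the direction of AREG, HBEGF and TGFA. CDH1 (-0.61, edgeR adjusted p = 0.0502) and CLDN7 (-0.40, edgeR adjusted p = 0.239) went the other way. In that comparison 3 were higher and 1 lower at an unadjusted p under 0.05, and DESeq2 called 4 higher and 1 lower. Of all tested genes edgeR called 7.32% higher and 6.75% lower there. In either direction the block called 5040 of them in HER2R against MKN45, 3860 in CEAR against MKN45 and 5717 between the derivatives. DESeq2 called 2820, 2098 and 3432 in the same order.

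The genes most like AREG, ERBB3 and ERBB2 over the 6 libraries were sought by the root mean square difference of centred log2 CPM, among 10358 genes with a mean of at least 5 CPM. AREG itself spread by 1.13 on this scale. Nearest to it were GNAL at 0.218, ADM at 0.245 and CD55 at 0.249. GNAL, a G protein subunit gene, had 16.4 and 22.1 CPM in HER2R, 3.42 and 4.22 CPM in CEAR, and 3.08 and 3.37 CPM in MKN45. ADM encodes the peptide adrenomedullin, and CD55 a surface inhibitor of complement that reached 473 and 763 CPM in HER2R, against 117 and 231 CPM in CEAR and 111 and 161 CPM in MKN45. Each of the 3 was highest in both HER2R libraries, which follows from their choice by likeness to AREG and is no separate result.

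Nearest to ERBB3, whose own spread was 0.403, were ELMO3 at 0.0644, IFT88 at 0.0699 and PDXDC1 at 0.0743. ELMO3 had 25.2 and 21.9 CPM in HER2R, 33.6 and 35.5 CPM in CEAR, and 41.1 and 46.8 CPM in MKN45. That its lines stand in the same order as for ERBB3 follows from its choice by likeness and is no separate result. Nearest to ERBB2, with a spread of 0.261, were THTPA at 0.0569 and THRA at 0.0676. Among the members themselves, EREG and HBEGF lay closest of the ligands, at 0.453, and AREG and HBEGF at 0.587. AREG and EREG, neighbours on the chromosome, lay at 0.817. ERBB2 and ERBB3 were the closest pair of all members, at 0.269. A gene that was flat over the 6 libraries would lie about as near to ERBB2, at the spread of 0.261. The small distance thus does not show that the pair varied together. These distances describe 6 libraries of 3 lines and are not tested.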

How the data were processed

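RNA sequencing measured total RNA of the 3 lines, 2 libraries each, from kits that mark strand, per the labels' protocols. The authors deposited unnormalised counts by gene symbol, whole numbers in every library. Per the submitters' processing notes, GRCh38 and limma were used, in a role left unsaid. What aligned and counted the reads, and with which annotation, is not given in the sources used here. Exon lengths and positions came from GENCODE 29, and promoters from RefSeq GRCh38.p14. Both libraries of a line differed beyond sampling noise, with chi-square values over their degrees of freedom of 60.7 in HER2R, 90.0 in CEAR and 128 in MKN45.

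Genes were tested in R 4.3.3 with edgeR 4.0.16, after filterByExpr by line (14786 symbols removed), with TMM scaling and a quasi-likelihood fit of a term per line to 6 libraries (3 residual and 3.51 prior degrees of freedom). Every adjusted p is from edgeR, unless DESeq2 1.42.0 is named, with Benjamini-Hochberg adjustment over all 14958 genes. SE is the absolute log2 fold change divided by root F. CPM use TMM-scaled totals.

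The members and lists were chosen with earlier results of these data known. Named were all members, up to 4 called genes per direction, list and comparison, and the 3 nearest genes to AREG, ERBB3 and ERBB2 (log2 of CPM plus 0.5), and some genes the rule names are not reported here. Alternatives were the replicate block, RLE factors, library size alone, no low-count filter, DESeq2, the compared lines alone, each library left out, and, chosen after seeing the data, the legacy quasi-likelihood method. The labels do not say what the library number means. The difference of number 2 minus 1 correlated between lines at 0.355 (HER2R and CEAR), 0.378 (HER2R and MKN45) and 0.545 (CEAR and MKN45) over 14958 genes, so the fit with the number as a block is given beside results it changes.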

Additional observations from a re-analysis of the deposited data

Results flagged for a closer look

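The 2 resistant lines differed from each other in 3 ligand genes when the difference itself was tested with edgeR. AREG was higher in HER2R than in CEAR by 2.05 on the log2 scale (adjusted p = 0.0173), HBEGF by 0.97 (adjusted p = 0.0353) and TGFA by 0.84 (adjusted p = 0.0457), each with both HER2R libraries above both CEAR libraries. Of all tested genes 7.32% were called higher in this comparison, and 61.4% had libraries that did not overlap. None of the 3 calls held with every library left out in turn (adjusted p 0.0532 to 0.212 where they ended), and that of TGFA ended without any of the 6 libraries and under 3 other settings. Groups of 2 libraries are too small to test for a library that stands apart.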

How the results depend on the processing

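In HER2R against MKN45, 1457 of all tested genes were called, 5040 with the replicate block, 2820 with DESeq2 and 189 to 1136 with a library left out. Of the members 4 were called, 6 with the block and 2 to 4 with a library left out. In CEAR against MKN45, 926 genes were called, 3860 with the block, 2098 with DESeq2, 404 with the compared lines alone and 253 to 428 with a library left out. Of the members 1 was called, 3 with the block, 2 with library size alone, 2 with DESeq2 and 1 with any library left out. In HER2R against CEAR, 2105 genes were called, 5717 with the block, 3432 with DESeq2 and 102 to 1856 with a library left out. Of the members 3 were called, 4 with the block, 4 with DESeq2, 1 with no low-count filter and 0 to 2 with a library left out. Leaving out a library leaves its line with 1, assumed to vary like the others. Reversed signs, all of values that had not passed, were EGFR in CEAR against MKN45 (0.03 with library size alone, -0.15 to 0.07 with a library left out), and in HER2R against CEAR ERBB2 (-0.39 to 0.14 with a library left out), EREG (-0.04 with library size alone, -0.15 to 0.20 with a library left out) and BTC (-2.21 to 0.42 with a library left out). The cause of these changes was not tested. The block changed no member's call other than those given beside the results. Another scaling moved the median of all genes by at most 0.07 on the log2 scale. BTC had the fewest counts of the members, from 8 to 115 a library.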
